A study of Mus musculus with 56 samples.

Results

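Ly75, Enpep and Tbata, genes used to recognise cortical thymic epithelial cells (cTECs) or named for the thymus, were followed through pregnancy-induced thymic involution and postpartum regeneration. The 3 genes were taken by name, located by Ensembl identifier, and read in all 56 samples out of the 50600 genes in the tables. The study sorted EpCAM+CD45- thymic epithelial cells (TECs) of female mice into UEA1- cells, called cTECs, and UEA1+ cells, called medullary TECs (mTECs), with 28 samples of each, 1 mouse per sample. Whether a cTEC and an mTEC sample of 1 time point came from the same mouse was not stated. The females were of the B.6SJL-Ptprca Pep3b/BoyJ-CD45.1 strain (B6.SJL), mated with BALB/cJ males, and the pups did not stay with their mothers after birth, so no female nursed. Age-matched non-pregnant controls (NPC), pregnant females at gestation day 18 (D-2), and females at D0 (parturition), D3, D6 and D12 had 3 samples per cell type, and 10 further time points between D1 and D28 had 1. The mice carried no transgene that the labels name, and cTECs were defined only by the lack of UEA1 binding, so none of these genes' products was used to sort them.

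The thymic cortex is where T cell precursors commit to the T lineage and are positively selected, and cTECs supply the ligands, peptides and chemokines for it. Ly75 encodes DEC-205 (CD205), an endocytic C-type lectin receptor of the mannose receptor family that is a standard surface marker of cTECs and is also carried by dendritic cells. Enpep encodes glutamyl aminopeptidase (aminopeptidase A, BP-1, the Ly51 antigen), a membrane zinc peptidase of the M1 family that removes acidic N-terminal residues and turns angiotensin II into angiotensin III. It is a common surface marker for sorting mouse cTECs, and it is also known on early B cells and on pericytes. Tbata (thymus, brain and testes associated, also called Spatial) encodes a protein reported to bind the E1 enzyme of the neddylation pathway, which attaches the ubiquitin-like protein NEDD8 to cullins, and to restrain TEC proliferation.

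All libraries were poly(A)-selected and had 4561208 to 108547384 estimated fragments on genes, with a median of 17972566. Levels are in FPKM, in which the fragments of a gene are divided by its transcript length and by the size of the library, so that levels of different genes can be set side by side. The mTEC markers separated the cTEC and mTEC labels over all samples, whereas the listed cTEC genes overlapped. The summed FPKM of 15 listed cTEC genes other than the 3 was 5267 to 23888 in cTEC samples and 3138 to 12499 in mTEC samples. At D-2 it was 5267 to 7000 against 3138 to 4875, and at D6 17513 to 23888 against 6955 to 12499, without overlap within either time point. The summed FPKM of 12 mTEC markers was 3753 to 8213 in the cTEC samples and 10729.8 to 20269 in the mTEC samples, without overlap, and the epithelial markers Epcam and Cdh1 were at 53.0 or more and 80.4 or more in every cTEC sample. By correlation of log2(FPKM + 0.5), 28 of 28 cTEC samples and 27 of 28 mTEC samples were on average closer to their own cell type. The exception was mTEC D6 replicate 2, with a mean r of 0.908 to the cTEC samples and 0.897 to the other mTEC samples. The samples lowest in mean r to their own cell type were cTEC D3 replicate 2 (0.779, with 9998 genes at 0.5 FPKM or more) and mTEC D3 replicate 1 (0.788, with 11686). For the 3 genes, D3 and D6 values that include these libraries are mostly given without them as well.

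In GRCm38 with the GENCODE M21 annotation, Ly75 (ENSMUSG00000026980.15) lies on the minus strand at chr2:60292103-60383303 and has 2 transcripts, both protein coding, of 5172 and 6901 bases. Enpep (ENSMUSG00000028024.14) lies on the minus strand at chr3:129269175-129332720 and has 5 transcripts, of which 1 of 4181 bases is protein coding and the others, of 780 to 2655 bases, are annotated as retained introns or as targets of nonsense-mediated decay. Tbata (ENSMUSG00000020096.20) lies on the plus strand at chr10:61171954-61188841 and has 10 transcripts of 666 to 1506 bases, 8 of them protein coding. The promoters are shown because FOXN1, the transcription factor on which TEC differentiation depends, is known to bind sites with the core GACGC. The patterns over the cTEC samples were also not equally alike. Pearson's r was 0.82 for Ly75 and Tbata, 0.61 for Ly75 and Enpep and 0.36 for Tbata and Enpep. Each line holds 120 bases of RefSeq sequence (GRCm38.p6), read 5′ to 3′ on the gene's strand and ending just before the more upstream of the RefSeq and GENCODE start sites, with the core in capitals. The windows are chr2:60383304-60383423 (minus strand), chr3:129332750-129332869 (minus strand) and chr10:61171834-61171953 (plus strand).
Ly75: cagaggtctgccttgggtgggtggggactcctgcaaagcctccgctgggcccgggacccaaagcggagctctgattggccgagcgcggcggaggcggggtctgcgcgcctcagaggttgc
Enpep: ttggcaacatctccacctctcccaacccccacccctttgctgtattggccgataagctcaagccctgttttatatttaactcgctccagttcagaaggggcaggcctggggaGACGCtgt
Tbata: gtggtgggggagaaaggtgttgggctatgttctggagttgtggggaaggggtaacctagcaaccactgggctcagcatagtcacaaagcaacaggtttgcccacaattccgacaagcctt
Searched on both strands over the 250 bases before the RefSeq start, GACGC occurred 1 time in Enpep, 8 to 4 bases before the start on the gene's strand, and did not occur in Ly75 or Tbata. The same letters occurred in 22.6% of 32851 promoter windows of that length. The Ly75 window had 17 CpG dinucleotides and a GC content of 66.8%, against 6 and 52.4% for Enpep and 1 and 51.6% for Tbata, and the median GC content of all windows was 52.4%.

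Levels differed widely between the 3 genes in cTECs. Tbata had a mean of 2036 FPKM over the 28 cTEC samples, rank 31 among all genes, Ly75 had 87.2 FPKM (rank 1056) and Enpep had 42.4 FPKM (rank 2438). Tbata exceeded Ly75 by a median of 21.8 times within a sample (range 9.03 to 41.5) and exceeded Enpep by 50.2 times (7.78 to 89.0). Ly75 was above Enpep in 25 of 28 cTEC samples, with a median ratio of 2.09, and the ratio was lowest, at 0.690, in cTEC D-2 replicate 4. In mTECs the means were 744 FPKM for Tbata (rank 135), 14.6 for Ly75 and 6.89 for Enpep.

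**Figure D1:**
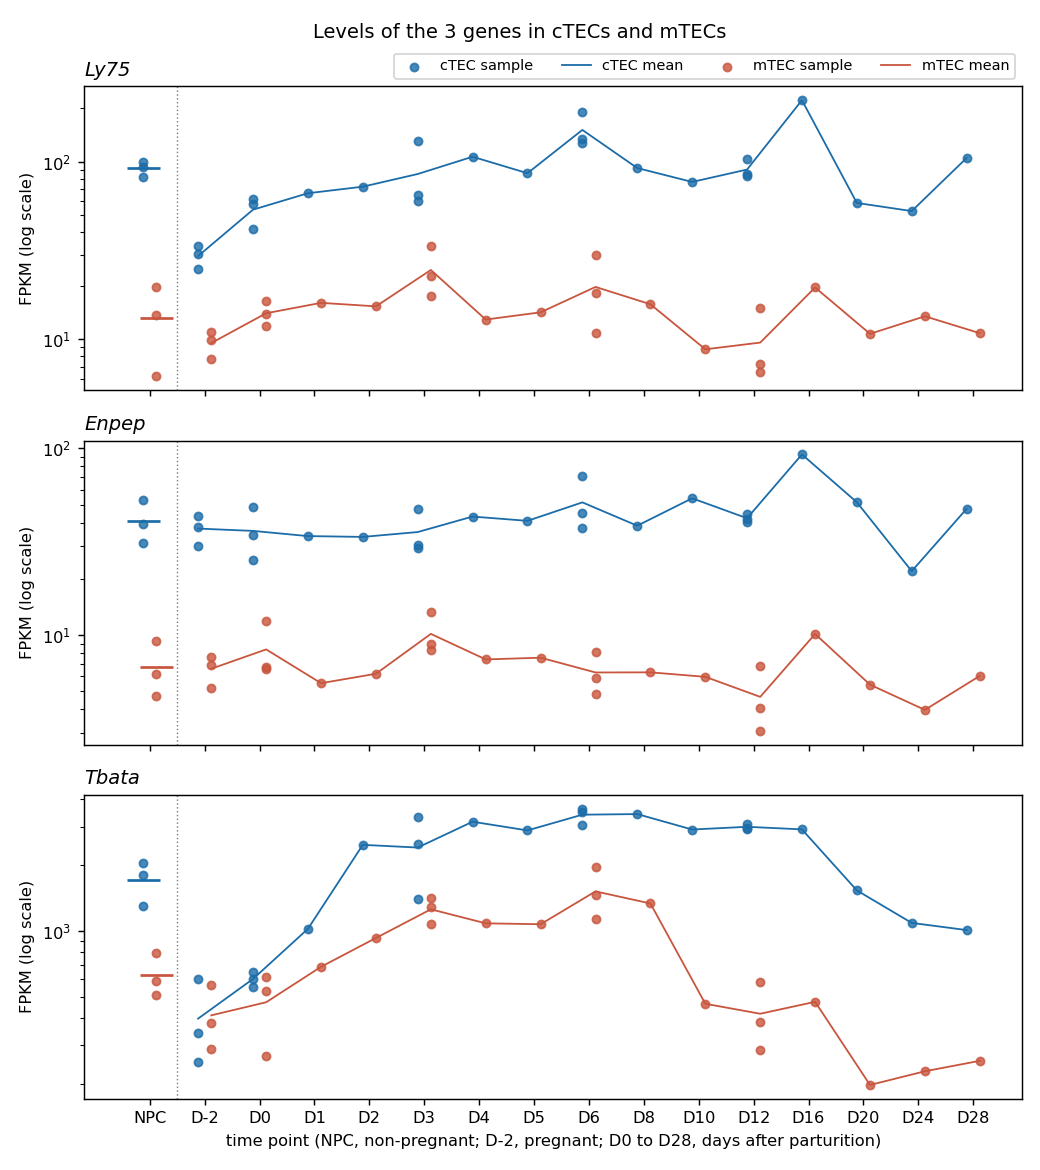
Level of each gene (FPKM, log scale) by time point, with 1 point per sample and a line through the means, for cTECs (blue) and mTECs (red); NPC stands left of the dotted line. Enpep stays within 22.0 to 92.8 FPKM in cTECs, while Tbata runs from 250 to 3628 FPKM and Ly75 from 24.7 to 222 FPKM.

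Ly75 changed over time in cTECs, and its changes were not tested against those of Enpep. In cTECs it was at 81.6, 99.6 and 93.6 FPKM in the NPC samples and at 33.4, 24.7 and 30.1 FPKM at D-2. Every D-2 sample was below every NPC sample, and the mean was 0.321 times the NPC mean. At D0 the samples had 41.6, 57.8 and 61.5 FPKM, all above those of D-2. D1 and D2 had 66.4 and 72.3 FPKM, and the D3 samples 60.0, 131 and 64.8 FPKM, the middle one being the library that stood apart. D4 and D5 were at 107 and 86.1 FPKM. The D6 samples were at 128, 134 and 191 FPKM, above every NPC, D-2 and D0 sample. Levels then returned toward those of NPC, with 92.1 FPKM at D8, 76.9 at D10 and 103, 85.0 and 82.7 at D12.

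Genes were called by limma-voom, fitted over all genes of a cell type, where the fold change was 2 or more and the p adjusted by Benjamini-Hochberg was 0.01 or less. Comparisons with D-2 share its 3 samples, and those with NPC share the 3 NPC samples. The share of all tested genes that were called, in either direction, is given beside the calls of most comparisons. Statements that samples did not overlap only describe the values. The share of all genes whose samples separate in the same way is not given. Ly75 in cTECs fell from NPC to D-2 by 1.61 on the log2 scale (SE 0.24, adjusted p = 0.0044), in a comparison that called 0.0947% of 15845 genes. From D-2 it rose by 2.34 at D6 (SE 0.24, adjusted p = 1.15e-05; 1.58% of genes called) and by 1.65 at D12 (SE 0.24, adjusted p = 0.00077; 0.77% called). The changes of 0.87 at D0 (adjusted p = 0.80; 0% called, 623 genes at an unadjusted p under 0.05) and 1.46 at D3 (adjusted p = 0.012; 0.114% called) did not pass. Without cTEC D3 replicate 2 the D3 value was 1.12 (adjusted p = 0.018). D12 and NPC differed by 0.04 (SE 0.22, adjusted p = 0.99), in a comparison that called 0% of genes and had 1048 at an unadjusted p under 0.05. The order of the replicated time points by mean was D-2, D0, D3, D12, NPC and D6, and of neighbours in it only D-2 and D0, and NPC and D6, did not overlap.

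The fall of Ly75 at D-2 had the least margin. Leaving out any 1 of NPC replicate 1, NPC replicate 4 or D-2 replicates 1, 3 and 4 put its adjusted p above the threshold, up to 0.048, while the change stayed between -1.69 and -1.49. The D12 rise lost its call without D-2 replicate 3 (adjusted p = 0.010), and the D3 change gained one without D3 replicate 1 or 3 (adjusted p = 0.0038 and 0.0057). The D3 change was called by edgeR (1.52) and DESeq2 (1.55). The D6 rise was called with each of its 6 samples left out, at 2.20 to 2.44. With no filter on low values none of the 7 changes of Ly75 and Tbata from NPC to D-2 or from D-2 onward that are called here in cTECs was called, at 2.23 for Ly75 and 3.24 for Tbata at D6.

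In mTECs, Ly75 was lower and no time point comparison was called. The samples had 13.7, 6.17 and 19.7 FPKM in NPC, 9.86, 7.73 and 11.0 at D-2, 11.9, 13.8 and 16.4 at D0, and 17.5, 22.6 and 33.6 at D3. At D6 they had 10.9, 30.0 and 18.3 FPKM, the highest being replicate 2, the library closer to cTECs, and at D12 14.9, 6.53 and 7.27. The NPC samples spanned the whole D-2 range, so that no fall was seen at D-2 (log2 fold change -0.01, SE 0.44, adjusted p = 0.99; 0.569% of 17743 genes called). Against D-2 the values were 0.41 for D0 (adjusted p = 0.94; 0% called, 1136 genes at an unadjusted p under 0.05), 1.205 for D3 (adjusted p = 0.20; 0.0113% called), 0.82 for D6 (adjusted p = 0.77; 0.0113% called) and -0.37 for D12 (adjusted p = 0.78; 0.49% called). D12 differed from NPC by -0.38 (adjusted p = 0.76; 0% called, 2119 genes at an unadjusted p under 0.05). Without D6 replicate 2 the D6 value was 0.28, and without D3 replicate 1 the D3 value was 1.47 (adjusted p = 0.20).

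No change of Enpep over time was called in either cell type. In cTECs the samples were at 39.3, 31.0 and 52.7 FPKM in NPC, 38.0, 30.0 and 43.6 at D-2, and 25.3, 48.6 and 34.6 at D0. They were at 29.2, 47.3 and 30.4 FPKM at D3, 37.7, 45.2 and 71.3 at D6, and 41.8, 44.7 and 40.3 at D12. All 5 neighbouring pairs in the order of means (D3, D0, D-2, NPC, D12, D6) overlapped. The single samples from D1 to D10 lay between 33.6 and 54.0 FPKM. D-2 differed from NPC by -0.19 (SE 0.28, adjusted p = 0.95 by limma-voom), and against D-2 the values were -0.06 for D0, -0.48 for D3, 0.54 for D6 (SE 0.26, adjusted p = 0.27) and 0.28 for D12, none of them called. Without cTEC D3 replicate 2 the D3 value was -0.17. D12 differed from NPC by 0.09 (SE 0.26). In the comparison of D6 with D-2 the 3 genes thus gave log2 fold changes of 3.20, 2.34 and 0.54 for Tbata, Ly75 and Enpep.

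The mTEC samples held 3.07 to 13.2 FPKM of Enpep, on 45 to 1669 fragments. They had 4.69, 6.21 and 9.34 FPKM in NPC, 5.18, 6.95 and 7.66 at D-2, 6.54, 11.8 and 6.76 at D0, 13.2, 8.90 and 8.28 at D3, 5.90, 8.15 and 4.85 at D6, and 6.84, 3.07 and 4.08 at D12. All neighbours in the order of means overlapped. The largest of the 6 differences was -1.16 at D12 against D-2 (SE 0.45, adjusted p = 0.20). The others were 0.64 for D-2 against NPC, 0.14 at D0, -0.21 at D3, -0.29 at D6 and -0.52 for D12 against NPC. Without mTEC D3 replicate 1 the D3 value was 0.08, and without mTEC D6 replicate 2 the D6 value was -0.57.

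The level of Enpep depended on the unit in a few libraries. RSEM divides fragments by the mean length of the transcripts it assigns them to, and that length was 1510 bases in cTEC D3 replicate 2 against a median of 3419.6 over the cTEC samples. This library therefore had 47.3 FPKM on 533 fragments, and 59.3 CPM (counts scaled by library size and the trimmed mean of M values, TMM), the lowest of the 28. Its D3 companions had 104 and 110 CPM at 29.2 and 30.4 FPKM. In mTEC D3 replicate 1 all 45 fragments were placed on a length of 780 bases, that of the shortest annotated transcript, a retained intron of 3 exons, and the library had the highest mTEC level in FPKM (13.2) with 8.76 CPM, against 25.1 and 24.9 in its companions. On FPKM the 3 mTEC D3 samples were above all D-2 samples, whereas on counts the change was -0.21, and on log2(FPKM + 0.5) in limma-trend it was 0.57. The lengths of Ly75 (6124 to 6901 bases) and Tbata (944 to 1033) were close to constant in cTECs.

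**Figure D2:**
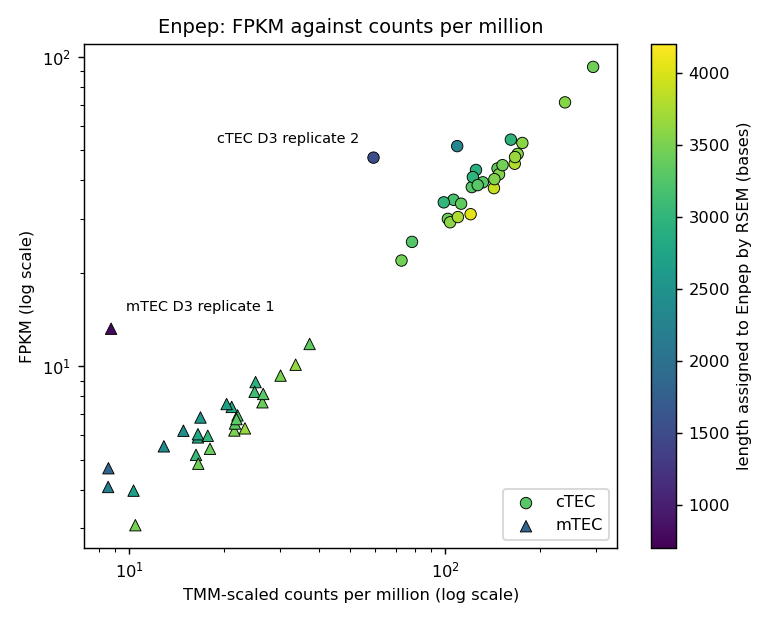
Enpep in each sample as FPKM against TMM-scaled CPM (both log scales); circles are cTECs, triangles mTECs, and colour gives the length RSEM assigned. cTEC D3 replicate 2 and mTEC D3 replicate 1 lie above the line of the others, with lengths of 1510 and 780 bases.

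Tbata had the widest range of the 3. In cTECs it was at 1794, 2039.8 and 1305 FPKM in NPC and at 601, 249.6 and 339 FPKM at D-2, so that all D-2 samples were below all NPC samples and the mean was 0.231 times that of NPC. The D0 samples were at 649, 602 and 556 FPKM, within reach of the highest D-2 sample. D1 had 1021 FPKM and D2 had 2478 FPKM, and the D3 samples had 2489, 3329 and 1405 FPKM. Levels from D4 to D16 lay between 2885 and 3628 FPKM, with 3068, 3519.7 and 3628 at D6 and 3077, 2941 and 2973 at D12. The later samples were lower, at 1533 FPKM at D20, 1088 at D24 and 1009 at D28.

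By limma-voom, Tbata in cTECs fell from NPC to D-2 by 2.17 on the log2 scale (SE 0.29, adjusted p = 0.0030; 0.0947% of genes called). From D-2 it rose by 2.58 at D3 (SE 0.29, adjusted p = 0.00052; 0.114% called), by 3.20 at D6 (SE 0.28, adjusted p = 4.68e-06; 1.58% called) and by 3.07 at D12 (SE 0.28, adjusted p = 2.33e-05; 0.77% called). The change at D0 was 0.71 (SE 0.29, adjusted p = 1.00) and was not called. Each D12 sample was above each NPC sample, but the difference of 0.89 (SE 0.26, adjusted p = 0.58) was not called, in a comparison that called 0% of genes. The order of means was D-2, D0, NPC, D3, D12 and D6, and in it only D0 and NPC did not overlap. The rises at D3, D6 and D12 were called with each of their 6 samples left out, at 2.28 to 2.92, 2.88 to 3.52 and 2.75 to 3.40. The fall at D-2 lost its call without NPC replicate 1, NPC replicate 4, D-2 replicate 3 or D-2 replicate 4, at adjusted p values up to 0.037, and stayed between -2.50 and -1.87. Without cTEC D3 replicate 2 the D3 rise was 2.34 (adjusted p = 0.0020).

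In mTECs, among the replicated time points, Tbata had its highest means at D3 and D6, and no change was called. Of all genes, 0.0113% were called at D3 and 0.0113% at D6 against D-2, 0% at D0 and 0.49% at D12. For D-2 and D12 against NPC the shares were 0.569% and 0%. The samples had 789.8, 592 and 509 FPKM in NPC, 566, 288 and 377 at D-2, and 618, 268 and 528 at D0. They had 1408, 1281 and 1077 FPKM at D3 and 1133, 1954 and 1462 at D6, all above the NPC, D-2 and D0 samples. From there the level was 1335 FPKM at D8, 464 at D10 and 582, 286 and 384 at D12, back in the range of D-2. The limma-voom differences from D-2 were 1.56 at D3 (SE 0.32, adjusted p = 0.021) and 1.83 at D6 (SE 0.31, adjusted p = 0.014), beyond the fold but not the p threshold. With a p limit of 0.05 both would be called, and DESeq2 called both at 0.01 (1.53 and 1.76). The change at D12 was -0.02 (SE 0.32, adjusted p = 0.98) and at D0 0.03, D-2 differed from NPC by -0.58 (adjusted p = 0.36), and D12 from NPC by -0.61 (adjusted p = 0.45). Without mTEC D6 replicate 2 the D6 value was 1.61 (adjusted p = 0.14), and without mTEC D3 replicate 1 the D3 value was 1.51 (adjusted p = 0.080).

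**Figure D3:**
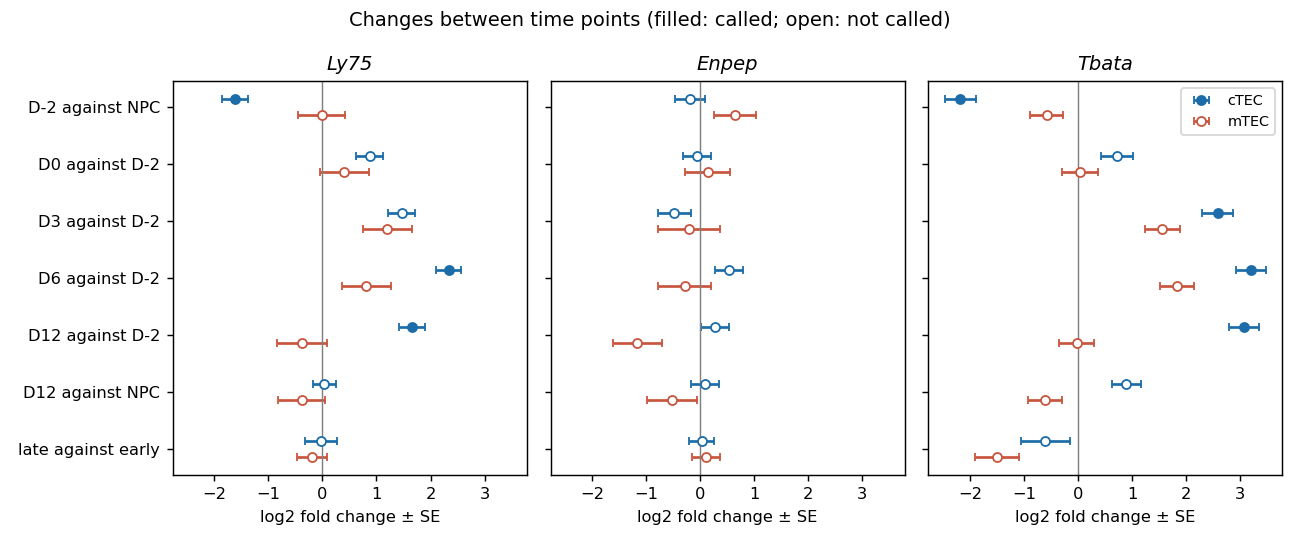
Log2 fold changes (± SE, limma-voom) for 7 comparisons of time points in cTECs (blue) and mTECs (red); filled points were called. Ly75 has 3 called changes and Tbata 4, all in cTECs, and Enpep has none.

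The late phase (D16, D20, D24 and D28, 1 sample each) was compared with the 18 samples of D0 to D12. Each phase was fitted with 1 mean. The SE and p of this comparison therefore hold the changes between days within a phase as well as the spread between mice. In cTECs the late samples had 222, 58.6, 52.7 and 105 FPKM of Ly75, 92.8, 51.5, 22.0 and 47.5 of Enpep, and 2916, 1533, 1088 and 1009 of Tbata, in order of time. The D16 sample was the highest of all cTEC samples for Ly75 and for Enpep, and D24 was the lowest for Enpep. None was called, with changes of -0.02 for Ly75 (SE 0.30), 0.02 for Enpep (SE 0.24) and -0.60 for Tbata (SE 0.45, adjusted p = 0.41 by limma-voom), while 1.41% of genes were. Without the D16 sample the values were -0.41, -0.23 and -0.90. In mTECs the late samples had 473, 197, 228 and 254 FPKM of Tbata, of which the last 3 were below all 18 early samples, and the change was -1.50 (SE 0.40, adjusted p = 0.049; 0.062% of genes called). Late mTEC samples had 10.7 to 19.6 FPKM of Ly75 and 3.97 to 10.1 of Enpep, with changes of -0.19 and 0.11.

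All 3 genes were higher in cTECs than in mTECs over the 6 replicated time points. The difference was 2.74 on the log2 scale for Enpep (SE 0.20, adjusted p = 4.49e-12), 2.48 for Ly75 (SE 0.15, adjusted p = 3.12e-14) and 1.09 for Tbata (SE 0.13, adjusted p = 3.34e-08) by limma-voom on all 56 samples. This comparison called 16.8% of 18394 genes, and each of the 3 calls held with every 1 of 36 samples left out. That of Tbata was lost in DESeq2 (0.99, under 2-fold), with sample quality weights (0.94) and without the filter (1.34), the last of which also ended that of Ly75 (2.56). The lowest cTEC sample of Enpep (22.0 FPKM) was above the highest mTEC sample (13.2 FPKM), so that no sample overlapped. For Ly75, 25 of 28 cTEC samples were above every mTEC sample, and the 3 others were those of D-2. For Tbata, 15 of 28 were.

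On mean FPKM, the ratio between the cell types ranged more widely over time for Tbata than for the surface genes. The genes were not tested against each other. The ratio of mean FPKM in cTECs to that in mTECs ranged from 3.51 (D3) to 9.50 (D20) for Enpep, from 3.09 (D-2) to 11.3 (D16) for Ly75, and from 0.966 (D-2) to 7.78 (D20) for Tbata. Both ends for Enpep include libraries with short assigned lengths, of 780 bases in mTEC D3 replicate 1 and 2304 in cTEC D20. In CPM, Enpep was at 109 in cTECs and 18.0 in mTECs at D20, and at 161 and 17.7 at D10, so D20 was not the widest on counts. Tbata samples of both cell types overlapped at D-2, D0 and D3 and at no other time point. The tests at single time points and those of the next paragraph were chosen after seeing the data. Enpep was called at NPC (3.11), D-2 (2.28), D0 (2.15), D6 (3.09) and D12 (3.77), but not at D3 (2.03, SE 0.68, adjusted p = 0.072). Ly75 was called at NPC (3.14), D0 (1.99), D3 (1.72), D6 (2.97) and D12 (3.60), but not at D-2 (1.46, SE 0.41, adjusted p = 0.031). Tbata was called at NPC (1.42), D6 (1.13) and D12 (2.93), but not at D-2 (-0.22, SE 0.37, adjusted p = 0.87), D0 (0.49, adjusted p = 0.43) or D3 (0.81, adjusted p = 0.11). The shares of all genes called by limma-voom were 5.12% at NPC, 1.67% at D-2, 2.74% at D0, 1.49% at D3, then 4.19% (D6) and 9.54% (D12). Left-out samples ended the calls of Tbata at NPC (without cTEC NPC replicate 1 or 4 or mTEC NPC replicate 3, at 1.31 to 1.35) and at D6 (without cTEC D6 replicate 2 or 4 or mTEC D6 replicate 1 or 4, at 0.88 to 1.19). They also ended those of Ly75 at D3 (without cTEC D3 replicate 2 or mTEC D3 replicate 1 or 2, at 1.40 to 1.66) and of Enpep at D-2 (without mTEC D-2 replicate 4, 2.67), D0 (without mTEC D0 replicate 2 or 4, 2.44 and 1.92) and D6 (without mTEC D6 replicate 1, 2.85). Without mTEC D6 replicate 2 all 3 genes were called at D6, at 3.57 for Ly75, 3.39 for Enpep and 1.38 for Tbata. At D3, Enpep was 2.34 without cTEC D3 replicate 2 and 1.75 without mTEC D3 replicate 1, and Tbata 0.57 and 0.88, none of them called.

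**Figure D4:**
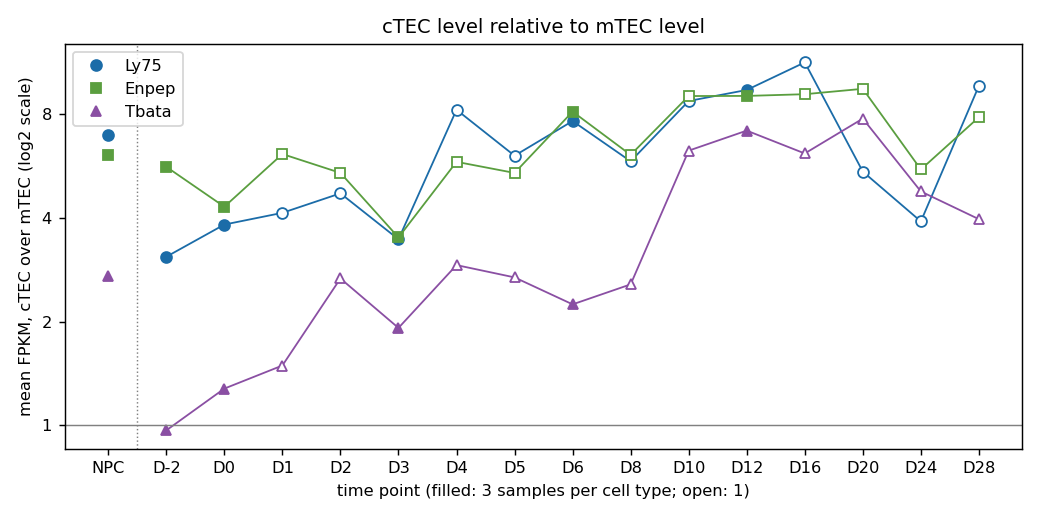
Mean FPKM in cTECs divided by that in mTECs (log2 axis) for Ly75, Enpep and Tbata at each time point; filled symbols have 3 samples per cell type and open ones 1. Tbata starts at 0.966 at D-2 and reaches 7.18 at D12, and Enpep and Ly75 stay at 3.09 or higher. The Enpep ratios at D3 and D20 include libraries with short assigned lengths.

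Whether a change over time differed between cTECs and mTECs was tested as an interaction in limma-voom. From D-2 to D12 Tbata rose more in cTECs, by 3.15 on the log2 scale (SE 0.46, adjusted p = 0.0014), in a test that called 0.114% of genes. The difference was not called without cTEC D-2 replicate 3 (2.78, adjusted p = 0.016) or mTEC D12 replicate 2 (2.85, adjusted p = 0.012). Ly75 differed by 2.14 (SE 0.54, adjusted p = 0.087) and Enpep by 1.49 (SE 0.61, adjusted p = 0.56) over the same interval. From D-2 to D6 the differences were 1.51 for Ly75 (SE 0.53, adjusted p = 0.71), 1.35 for Tbata (SE 0.45, adjusted p = 0.62) and 0.81 for Enpep (SE 0.66), none called, with 0.00544% of genes called. Without mTEC D6 replicate 2 they were 2.07, 1.57 and 1.08. For the fall at D-2 they were -1.67 for Ly75 (adjusted p = 0.38), -1.63 for Tbata (adjusted p = 0.29) and -0.83 for Enpep, with 0% of genes called. At D0 and D3 against D-2, and at D12 against NPC, limma-voom called no difference in the 3 genes or in any other (0%, 0% and 0%). In these 4 tests 1480, 671, 1869 and 1183 genes had an unadjusted p under 0.05, edgeR called 0 in each, and DESeq2 called 25, 17, 58 and 21. The difference of Tbata for D12 against NPC was 1.52 (SE 0.42, adjusted p = 0.53). A called change in cTECs beside an uncalled one in mTECs is thus a tested difference only for Tbata at D12.

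The 15 other cTEC genes that were listed gave the setting for these changes. In cTECs, 9 of the 15 rose from D-2 to D6, where 1.58% of all genes were called, with a median log2 fold change of 1.46 against -0.02 for all genes. The largest were those of Dll4, the Notch ligand that commits precursors to the T lineage (3.96), Psmb11, the thymoproteasome subunit (3.73), Prss16, a serine protease of the class II pathway (3.72), and Cd83, which stabilises surface MHC class II (3.71). Tbata (3.20) stood between Cd83 and the chemokine gene Ccl25 (3.09), Ly75 (2.34) between Ccl25 and the cathepsin gene Ctsl (1.84), and Enpep (0.54) near the end of the list, above Ackr4 (0.05). From NPC to D-2, where 0.0947% of genes were called, 2 of 15 fell, Prss16 by 2.80 and Ctsl by 1.19, at a median of -0.69 against 0.03 for all genes. At D12 against D-2, 8 of 15 rose, where 0.77% were called. In mTECs 0 of 15 were called at D6 by limma-voom, with 13 of 15 at an unadjusted p under 0.05 and a median of 1.09, where 2 genes (0.0113%) were called in all (5 by edgeR and 113 by DESeq2). Without mTEC D6 replicate 2, limma-voom called 0 of 15 and 0 genes in all, with 9 of 15 at an unadjusted p under 0.05 and a median of 0.85. Between cell types 9 of 15 were higher in cTECs, where 16.8% of genes were called, at a median of 1.52 (9 or 10 of 15 without any 1 of the 3 libraries that stood apart), and Ackr4 (3.36), which hardly moved over time, had a larger difference than Enpep.

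**Figure D5:**
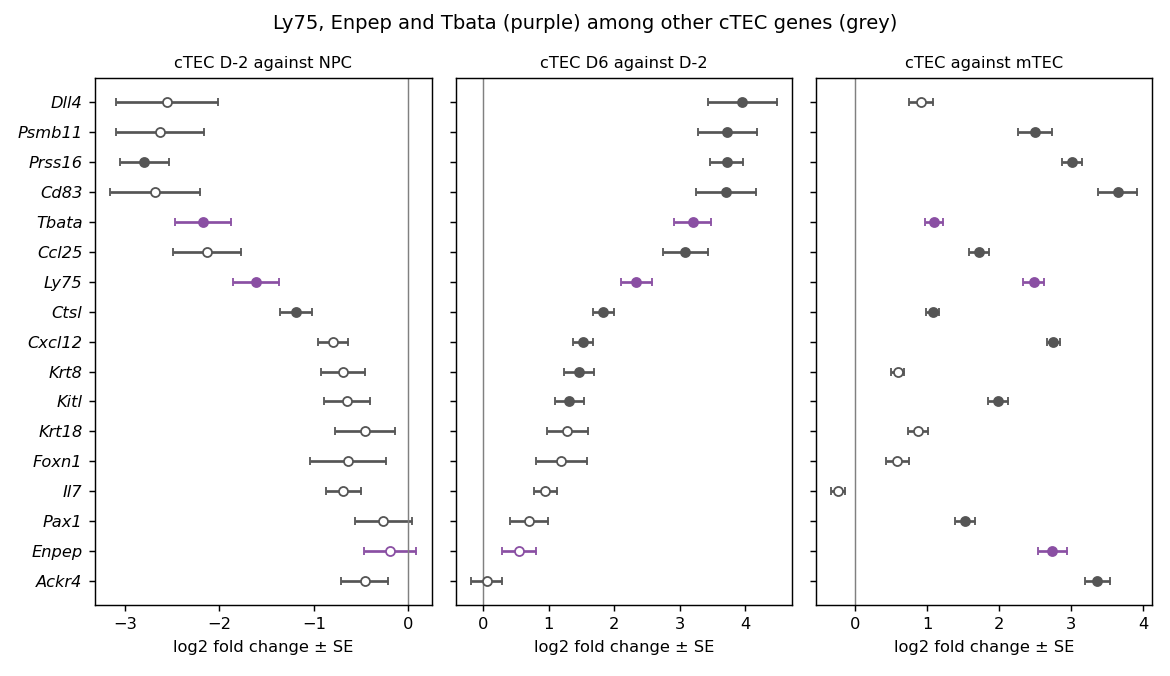
Log2 fold changes (± SE, limma-voom) of Ly75, Enpep and Tbata (purple) and other cTEC genes of the list (grey), ordered by the change from D-2 to D6; filled points were called. For D6 against D-2 Enpep (0.54) sits above Ackr4 (0.05) at the end of the order, and for cTECs against mTECs (2.74) 4 of the others exceed it.

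The genes whose pattern over the 28 cTEC samples was most like that of each gene were found among 10068 genes with a mean of 5 FPKM or more, by Pearson's r of log2(FPKM + 0.5). These values are descriptions over samples that share time points. For Tbata they were Crip3 (0.98), Prss16 (0.98), Ccl25 (0.98), Cstb (0.97) and Fabp5 (0.96), of which Prss16 and Ccl25 are on the cTEC list. For Ly75 they were Tmem131l (0.93), Mreg (0.93), Cyth1 (0.92), Ctsl (0.91) and Snx9 (0.91). For Enpep they were lower, with Hipk3 (0.73), Lacc1 (0.73), Rasgef1b (0.70), Arglu1 (0.69) and Aebp2 (0.68), and none was on the cTEC list. Between the 3 genes r was 0.82 for Ly75 and Tbata, 0.61 for Ly75 and Enpep and 0.36 for Tbata and Enpep. In mTECs, among 10502 genes, the genes nearest to Tbata were Ccl25 (0.95), Psmb11 (0.92), Trpm2 (0.92), Prss16 (0.91) and Crip3 (0.91), so that Ccl25, Prss16 and Crip3 stood among the first 5 in both cell types. Those nearest to Ly75 in mTECs were Snx9 (0.87), Pkp1 (0.86), Sptbn1 (0.79), Dsp (0.79) and Lacc1 (0.78), and those nearest to Enpep were Tiparp (0.78), Lgalsl (0.78), Irf2bp2 (0.76), Zcchc14 (0.75) and Plgrkt (0.75).

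Relatives and partners of the 3 genes were listed as well. Of 10 other M1 aminopeptidases 8 passed the filter in cTECs, and 1, Rnpepl1, was called, with a rise of 1.48 at D6 (1.58% of all genes called) and 1.70 at D12 (0.77%) against D-2. Lvrn and Trhde were listed at 0 in 25 and 21 of 28 cTEC samples. Anpep, aminopeptidase N, moved by -2.35 from D-2 to D6 (adjusted p = 0.011 by limma-voom), opposite in sign to Enpep and not called. In mTECs Npepps alone was called, higher by 1.29 at D-2 than in NPC (0.569% of genes called). In the comparison of cell types over all 6 replicated time points (16.8% called), limma-voom called 0 of 8 tested relatives, 6 of which had an unadjusted p under 0.05, and in those at single time points 1 was higher in cTECs at NPC and 1 at D12. Of 12 other genes of angiotensin processing and sensing, 6 passed in cTECs and the receptors Agtr1a, Agtr1b and Agtr2 were at 0 in 26, 28 and 27 of 28 samples. The protease gene Ctsa fell by 1.50 from D-2 to D6 and by 1.19 to D12 (1.58% and 0.77% of genes called), and 4 of 9 tested members were lower in cTECs than in mTECs (16.8% called), among them Ren1 (-4.59) and Ace (-2.84).

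The mannose receptor relatives of Ly75 were low in cTECs, at mean levels of 1.49 FPKM for Mrc2, 0.548 for Pla2r1 and 0.426 for Mrc1, and none was called over time in either cell type. Between cell types (16.8% of genes called) Mrc2 was higher in cTECs by 2.23 and Mrc1 lower, at -2.89. The nearest protein-coding gene, Cd302, which starts 7615 bases past the end of Ly75 on the same strand and encodes another C-type lectin, had 4.19 FPKM in cTECs and 3.68 in mTECs and was not called in any comparison. The antisense gene Gm13571, which overlaps Ly75, had means of 0.021 and 0.061 FPKM, the overlapping pseudogene Gm42628 of Enpep had 0.0054 and 0, and Tbata overlaps no other annotated gene. Of 20 neddylation genes, the pathway of the reported partner of Tbata, 0 were called over time in cTECs by limma-voom, with 0 to 7 of them at an unadjusted p under 0.05, where the shares of all genes called were 0 to 1.58%. At D6 against D-2, 17 of 20 values were above 0, with a median of 0.32 against -0.02 for all genes, and at D-2 against NPC 8 were, with a median of -0.06 against 0.03. Between cell types 1 of 20, Dcun1d4, was higher in cTECs (1.89; 16.8% of genes called).

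Genes of other cells were read beside these results. In bulk samples, fewer cells of a type and less RNA per cell cannot be told apart. The summed FPKM of 12 mTEC markers in cTECs was 4499 to 6251 in NPC and 5882 to 8213 at D-2. It was 6642 to 8021 at D0 and 5686 to 7517 at D3, then 3753 to 4391 (D6) and 4658 to 8130 (D12). At D6 against D-2 in cTECs, 7 of 12 had an unadjusted p under 0.05 by limma-voom, as had 3017 of all 15845 genes. The part of these markers in the results of the 3 genes was not tested. The summed FPKM of 19 thymocyte markers in cTECs was 64.4 to 366 in NPC, 44.6 to 51.7 at D-2, 58.3 to 93.1 at D0, 220 to 621 at D3, then 163 to 214 (D6) and 267 to 303 (D12), and like Ly75 and Tbata was lowest at D-2. Themis was the 1 called at D6 against D-2 (5.24; 1.58% of genes called), where 17 of 19 were above 0 and the median was 2.57 against -0.02 for all genes. Between cell types 11 of 19 were higher in cTECs (16.8% called), 18 were above 0 and the median was 2.24. The part of this in the results of Ly75 and Tbata was not tested. Of the markers of dendritic cells, which carry DEC-205, Clec9a was at 0 in cTECs in 24 of 28 samples, Siglech and Batf3 in 19, Xcr1 in 17 and Itgax in 15, and the summed level of 9 dendritic cell genes, 0 to 30.0 FPKM, was mostly that of Sirpa. Their sum in mTECs was 17.2 to 71.5 FPKM. Of the markers of B cells, the early forms of which carry BP-1, Vpreb1 and Igll1 were at 0 in 20 and 17 of 28 cTEC samples, and the sum of 8 B cell genes, mostly Ighm, was 7.35 to 42.0 FPKM in cTECs and 7.97 to 70.5 in mTECs. Of 11 markers of mural cells, which include the Enpep-bearing pericytes, and fibroblasts, 5 were lower and 1 higher in cTECs than in mTECs (16.8% of genes called), among the lower Rgs5, with means of 9.41 and 88.2 FPKM, and Pdgfrb, with 0.285 and 1.97. The macrophage list had 4.48 to 45.0 FPKM in cTECs and 19.6 to 220.2 in mTECs, the endothelial list 0 to 7.01 and 1.39 to 15.4, and the mural cell and fibroblast list, mostly Dcn and Acta2 in cTECs, 164 to 863 and 296 to 877. The part of these cells in the levels of Ly75 and Enpep was not tested.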

How the data were processed

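The tables were made by the authors with Trimmomatic 0.35, STAR 2.5.1b and RSEM 1.2.28 on GRCm38, after bcl2fastq 2.20. The annotation release was not given in the sources used here. Of 50600 gene identifiers, 50376 matched GENCODE M21 without their version. The deposited expected counts (estimated counts per gene, not normalized) were rounded to whole numbers, as 91.44 to 97.96% of them already were, and the deposited FPKM values were used as levels. The deposited TPM values served 1 alternative. Genes whose FPKM averaged 0.5 or more in a cell type (28 samples) were fitted with TMM scaling in limma-voom (limma 3.58.1, edgeR 4.0.16, R 4.3.3), with 1 mean per time point, or per phase (18 early, 4 late samples), or per cell type and time point for all 56 samples. The study's thresholds, 2-fold and an adjusted p of 0.01, were used for calls. DESeq2 1.42.0, edgeR's quasi-likelihood test, other scalings, filters and units, and left-out samples were alternatives. Counting error was small for most values: RSEM's credibility intervals had median half-widths of 1.44 to 6.24% of the level in cTECs and 2.33 to 15.9% in mTECs. Tests were checked on simulated counts with known 4-fold changes. Limma-voom recovered 30.9% of them for cTEC D6 against D-2 and 58.8% for cTEC late against early. It recovered 70% between cell types and 15% in the D6 interaction. Of the calls in the simulation, 1.67 to 4.2% were false. Apart from the changed genes, all simulated samples shared 1 mean profile, with dispersions estimated from the replicated cTEC samples only. Neither a time course nor the spread of mTECs was included, so these rates may not hold for the phases, cell types or interaction. Many real 4-fold changes could go uncalled, so an uncalled result does not show that a level stayed the same. The named genes were the 3 genes, up to 4 called members of each list or, where none was called, its most highly expressed ones, the 5 genes most alike, and annotated neighbours, and Anpep, Ackr4, Lvrn, Trhde, the tests of cell types at single time points and the interactions other than D6 were chosen after the data were seen. The 3 genes and all lists were chosen with earlier results of these data known. Replicate numbers are those of the sample titles. Single values of a few listed genes are not reported here, though list counts and sums include them.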

Additional observations from a re-analysis of the deposited data

Results flagged for a closer look

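The values of the 2 cell types were set side by side under the same comparison in these cases. The change of Tbata from D-2 to D12 differed between cTECs and mTECs by 3.15 on the log2 scale (limma-voom interaction, adjusted p = 0.0014), with all 3 cTEC samples of D12 above all 3 of D-2, and the mTEC samples of both overlapping. Tbata at D12 was 1.75 times the NPC mean in cTECs, with all 3 D12 samples above all 3 of NPC. In mTECs it was 0.662 times the NPC mean, and the samples of D12 and NPC overlapped. The limma-voom interaction for this difference between the cell types gave 1.52 (adjusted p = 0.53), so it was not called. No late sample lay apart from its group of 4 by Dixon's test for any of the 3 genes. These 4 were single samples of different days and not replicates, so the test cannot show that none stood out. The D16 sample was the highest of all cTEC samples for Ly75 and for Enpep.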

How the results depend on the processing

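The calls of Ly75 and Tbata at D6 against D-2 in cTECs kept their direction under all alternatives run. They lost significance only when no filter on low values was used, at 2.23 and 3.24. That setting added genes near 0 to the fit, and under it the calls of Ly75 (-1.66) and Tbata (-2.45) at D-2 against NPC and of Ly75 (2.56) and Tbata (1.34) between cell types were lost too, as were Tbata at D3 (2.79) and Ly75 and Tbata at D12 (1.79 and 3.15) in cTECs, Tbata late against early in cTECs was called (-1.05), and Enpep turned sign in cTECs late against early (-0.16) and at D0 (0.059), as did Ly75 in mTECs at D-2 (0.27). With only the 2 time points in the fit the D-2 calls and that of Tbata at D3 in cTECs were lost (-1.61 for Ly75, -2.16 and 2.60 for Tbata), and that of Ly75 also on log2(FPKM + 0.5) (-1.63) and log2(FPKM + 0.1) (-1.64). Tbata between cell types fell under the 2-fold limit in DESeq2 (0.99) and with sample quality weights (0.94). Tbata in mTECs at D6 was called with a p limit of 0.05 (1.83), by DESeq2 (1.76), without the filter (1.80), with sample weights (1.73) and with only 2 time points (1.87), and late against early with that limit (-1.50), by DESeq2 (-1.66) and with D12 counted as late (-1.49).

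Values near 0 changed sign. Ly75 late against early in cTECs was 0.15 in edgeR, 0.20 in DESeq2, 0.019 with DESeq2 size factors, 0.042 without TMM, 0.89 with sample weights, 0.11 and 0.11 on FPKM, 0.18 on TPM and 0.043 with D12 as late, where Tbata was 0.0070. Enpep late against early in mTECs was -0.017 in edgeR, -0.0430 with weights, -0.14 and -0.15 on FPKM, -0.12 on TPM and -0.27 with D12 as late. Tbata at D12 against D-2 in mTECs was 0.018 in edgeR, 0.0061 in DESeq2 and 0.019 and 0.019 on FPKM, Ly75 at D12 against NPC in cTECs was -0.0114 in DESeq2, -0.0065 with size factors, -0.024 and -0.024 on FPKM and -0.075 on TPM, and Enpep at D3 in mTECs was 0.57 and 0.60 on FPKM and 0.53 on TPM. Beyond the assigned lengths given for Enpep at D3, the cause was not tested.

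Leaving out 1 sample gave these ranges. In cTECs, D-2 against NPC was -1.69 to -1.49 for Ly75, -2.50 to -1.87 for Tbata and -0.32 to -0.05 for Enpep, D12 against NPC was -0.066 to 0.10 for Ly75 and -0.026 to 0.19 for Enpep, D0 was -0.36 to 0.13 for Enpep, and late against early was -0.41 to 0.23 for Ly75 and -0.23 to 0.34 for Enpep. In mTECs, D-2 against NPC was -0.62 to 0.29 for Ly75, D6 was -0.57 to 0.076, D3 -0.45 to 0.16, D0 -0.13 to 0.50 and late against early -0.31 to 0.37 for Enpep, and D0 was -0.20 to 0.52 and D12 against D-2 -0.25 to 0.26 for Tbata. Among the tests chosen after seeing the data, the Tbata difference at D12 was 2.78 to 3.47, Tbata between cell types at D-2 -0.54 to 0.10, the Enpep differences at D0 and D3 -0.55 to 0.13 and -0.61 to 0.0078, and the Ly75 difference at D3 -0.12 to 0.55. Between cell types, edgeR and DESeq2 called Ly75 at D-2 (1.57 and 1.52) and Enpep at D3 (2.19 and 2.18), and edgeR did not call Tbata at D6 (1.09).

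Whether a cTEC and an mTEC sample came from the same mouse was not stated, and the tests across cell types treated all 56 samples as independent. Samples of the 2 cell types with the same title number at 1 time point correlated above 0.1 in 8 of 16 pairs, at a median r of 0.093. Differently numbered pairs were not set beside them, so these values cannot decide whether the samples are paired. The correlation estimated by limma for such pairs was 0.029. A separate fit within each cell type used the replicate number of the sample labels, not of the titles, as a block across time points. With it, Ly75 and Tbata at D6 in cTECs were 2.34 and 3.19 and no call of the 3 genes changed, while genes called in cTECs went from 15 to 26 at D-2 and from 18 to 29 at D3. Counts of genes called ranged over alternatives from 74 to 568 for cTEC D6 against D-2 (250 as reported), 49 to 332 at D12 (122), 0 to 198 at D3 (18), 0 to 122 at D-2 against NPC (15), 0 to 1045 late against early (223), and 2508 to 4015 between cell types (3099). In mTECs they ranged from 0 to 306 at D-2 (101), 0 to 342 at D12 (87), 0 to 238 at D3 (2), 2 to 771 at D6 (2) and 1 to 184 late against early (11), and the D6 interaction from 1 to 57 (1). DESeq2 called 15 and 5 genes in the cTEC comparisons D0 against D-2 and D12 against NPC, which had none, and up to 78 and 13 were called in mTECs.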
